A study of Homo sapiens with 4 samples.

Results

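Enteroendocrine genes, which encode gut peptide hormones, the granins packed with them and the transcription factors that make hormone cells, were examined in Caco-2 cells exposed to a bile acid. The rule named 10 genes, GIP, GCG, CCK, PYY, SST, NTS, CHGA, CHGB, NEUROD1 and NEUROG3, and took for each the probe set annotated with that symbol alone. Of these, 9 were measured, with 1 probe set each, among 18417 genes with a probe set of their own. NEUROD1 had no such probe set in the annotation used here. The genes were chosen by their cholate values, namely the low GIP in cholate, so every cholate value below is a description of that choice and carries no test.

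Caco-2, an established line from a human colorectal adenocarcinoma, comes to resemble absorptive enterocytes once its cultures are confluent. It was grown on regular 6-well plates or on collagen-coated Transwell inserts, whose porous membrane separates an apical from a basolateral compartment. On each support, cells were kept for 3 h with vehicle or with cholate at 2 mM, given as sodium cholic acid and, on the inserts, from the apical side. Each of the 4 conditions was measured on 1 array with RNA pooled from 3 samples, so no difference below has a replicate check. The cholate solution was a buffered, calcium-free salt solution; the make-up of the vehicle is not given here. The sample labels give 21 days of differentiation throughout, while the growth protocol gives 14 days for plates and 14 to 21 days for inserts, so time in culture and support cannot be told apart. The culture surfaces also differed in size, at 34.8 mm for a plate well and 6.5 mm for an insert.

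Enteroendocrine cells are scattered hormone cells of the gut epithelium that sense nutrients and bile acids in the lumen and release peptides towards the blood. K cells make GIP, an incretin that raises insulin release after a meal. L cells make GCG, whose precursor yields GLP-1 in the gut, and PYY, while I cells make CCK, D cells make SST and N cells make NTS. Bile acids act on such cells in part through GPBAR1, a receptor that raises cyclic AMP. The factor NEUROG3 commits epithelial progenitors to the endocrine fate, and NEUROD1 acts after it.

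GIP is the gene whose RNA differed most among the measured members, and the 250 bases before its transcription start are shown because the motifs of several lineage factors measured here can be looked for in them. They are from RefSeq, build GRCh38.p14, minus strand, chr17:48968597-48968846, with matches to AGATAA, the letters bound by GATA factors, and to TATAAA, the TATA box, in capitals.
GIP: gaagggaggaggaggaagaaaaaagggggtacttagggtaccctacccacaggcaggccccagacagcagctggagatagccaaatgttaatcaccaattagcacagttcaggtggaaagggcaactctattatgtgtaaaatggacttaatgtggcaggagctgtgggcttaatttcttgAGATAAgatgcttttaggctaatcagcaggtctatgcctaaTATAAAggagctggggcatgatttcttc

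The AGATAA match begins 69 bases and the TATAAA match 28 bases before the start of GIP. Both strands were searched, and AGATAA occurs in 9.17% and TATAAA in 10.7% of 35116 RefSeq windows of the same length. Among the 9 members with a window, NTS and NEUROG3 also hold AGATAA. The TATA box letters were also found for SST, for proglucagon (GCG) and in 1 of the 2 CCK windows. The GCG matches begin 79 and 30 bases before its start. The SST match begins 215 bases before its start, far from the position of the match in GIP. TAAT, the core that homeodomain factors such as PDX1 and ISL1 recognise, occurs 7 times in this window, the copy nearest the start sharing its last base with TATAAA; 47.4% of all windows hold it at least once. TGACGTCA, the cyclic AMP response element, is not among these letters in GIP. It was found in 1.65% of all windows and, among these members, in SST and CHGA, beginning 47 and 54 bases before their starts. These matches describe letters and show no binding. The 4 factors that bear on them are given further down.

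GIP read 6.58 on the log2 intensity scale in plate vehicle, 5.66 in plate cholate, 5.76 in Transwell vehicle and 5.04 in Transwell cholate. Plate vehicle was the highest pool and Transwell cholate the lowest, with the other 2 pools close together between them (0.10 log2 apart). All 4 values lay at or above the floor of 4.84, the 40th percentile of probe set means, under which values were taken as near background. The lowest lay close to it, and RMA, the summary behind these values, compresses differences near background. With cholate, plate GIP was lower at -0.92 log2 (1.9-fold) and Transwell GIP at -0.71 (1.64-fold). These values chose the genes. In pooled RNA, fewer cells with the transcript and less transcript per cell cannot be told apart.

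No other member was 1.5-fold apart in either cholate pair. That left 1 of 9 measured members at least 1.5-fold lower on the plate, where 1.92% of all measured genes were, and 1 of 9 on Transwell, where 0.614% were. Of the 12900 genes above the floor, 76 had a plate response as low as that of GIP or lower, 57 a Transwell response as low, and 29 both. The difference between its responses, Transwell minus plate, was 0.21 log2. It has no error estimate of its own because it uses all 4 arrays.

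Support was not used to choose the genes, but the arrays are shared: the plate vehicle pool enters both the plate response and the support difference in vehicle. GIP was lower on Transwell than on the plate at -0.82 log2 in vehicle (1.77-fold) and at -0.62 in cholate (1.53-fold). It was the only one of 9 measured members at least 1.5-fold lower in either pair, against 2.51% of all measured genes in vehicle and 2.92% in cholate. The mean over both treatments was -0.72 with a limma SE of 0.10. It did not pass the limma test (Benjamini-Hochberg adjusted p = 0.11, unadjusted 0.00242). That fit called 0 of 19978 probe sets (0%) for support in either direction, with 4519 at an unadjusted p under 0.05 where chance gives 999. Its SE combines 1 residual degree of freedom with a variance borrowed across probe sets, weighted at 2.829 prior degrees of freedom. Such an SE does not measure the spread between cultures.

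GIP was among 10 genes above the floor, 0.0775% of them, that were at least 1.5-fold lower in all 4 differences, while 0 genes were higher in all 4. The 4 differences share arrays, and GIP left this set after median centring and after quantile normalization, when its support difference in cholate was -0.58 and -0.57. The other 9, named after their values were seen, were KRT23, a keratin, MUC15, a membrane mucin, CD24, a surface glycoprotein, EMP2, an epithelial membrane protein, IFIT1, an interferon-induced gene, PALLD, an actin-associated protein, DOCK8, a guanine nucleotide exchange factor, TFCP2L1, a transcription factor, and RIPOR2. None of these is a hormone gene. In Transwell cholate PALLD (4.64) and RIPOR2 (4.11) were under the floor, so their differences with that pool end near background. KRT23 read 9.18 in plate vehicle, 7.73 in plate cholate, 8.10 in Transwell vehicle and 6.69 in Transwell cholate. Its pools stood in the same order as those of GIP, with larger steps.

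**Figure D1:**
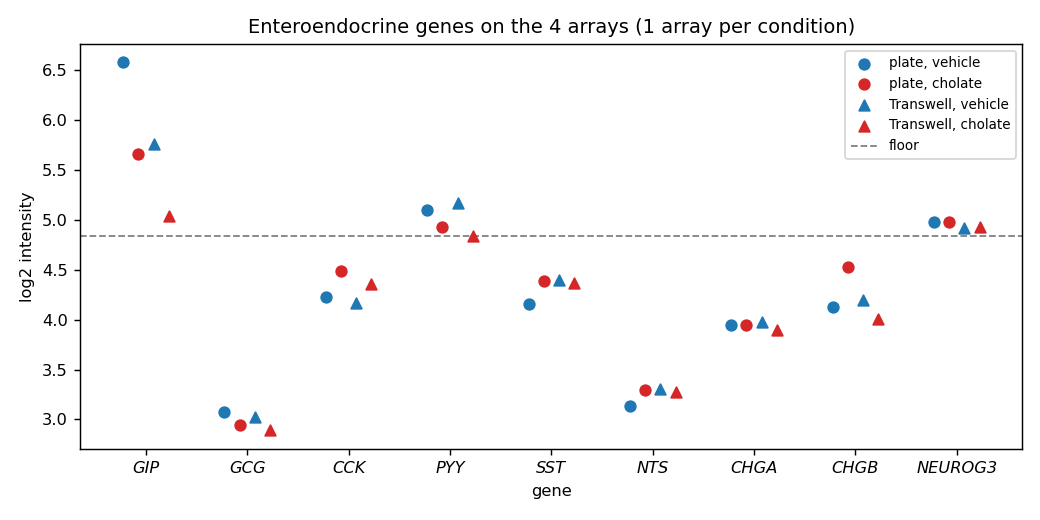
Log2 intensity (vertical axis) of the 9 measured enteroendocrine genes (horizontal axis) on the 4 arrays; circles are plates, triangles Transwell inserts, blue vehicle, red cholate, and the dashed line is the floor of 4.84. GIP spans 6.58 to 5.04, while the other 8 span at most 0.52 each; intensities of different probe sets are not on a common scale of abundance, so heights are to be compared within a gene.

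The other hormone genes among the members gave little or no signal. GCG read 3.07 and 2.94 in vehicle and cholate on the plate and 3.02 and 2.89 on Transwell, under the floor on all 4 arrays. CCK read 4.23 and 4.49 on the plate and 4.17 and 4.36 on Transwell. It was the 1 hormone among the members above 0 in both cholate pairs (0.26 and 0.19). All its values too were under the floor.

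Among the members, PYY was the only hormone gene besides GIP with a mean above the floor. It read 5.10 in plate vehicle, 4.93 in plate cholate, 5.17 in Transwell vehicle and 4.84 in Transwell cholate, the last just under the floor before rounding. Both vehicle pools were thus above both cholate pools, with cholate responses of -0.17 log2 for the plate pair and -0.32 for the Transwell pair, with no reference spread to set these against. Its support mean was -0.01 with an SE of 0.09 (limma adjusted p = 0.956).

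SST read 4.16 and 4.39 on the plate and 4.40 and 4.37 on Transwell in vehicle and cholate. NTS read 3.13 and 3.29 on the plate and 3.31 and 3.27 on Transwell. In both genes the plate vehicle pool was the lowest and the other 3 pools lay close together, whereas plate vehicle was the highest pool for GIP. All these SST and NTS values were under the floor.

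Granins are acidic proteins of secretory granules and general markers of endocrine cells. CHGA read 3.95 in both plate pools, 3.98 in Transwell vehicle and 3.90 in Transwell cholate, a range of 0.09 log2 wholly under the floor. CHGB read 4.13 and 4.53 on the plate and 4.20 and 4.01 on Transwell, also under the floor. Its plate cholate pool was the highest, which gave 0.40 log2 for cholate on the plate, -0.18 on Transwell, and -0.52 for Transwell minus plate in cholate. The response difference of -0.59 was the most negative among the measured members.

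NEUROG3 read 4.98 in both plate pools, 4.92 in Transwell vehicle and 4.93 in Transwell cholate. Its range of 0.07 log2 was the narrowest among the measured members, just above the floor on all 4 arrays. The support mean was -0.06 with an SE of 0.09 (limma adjusted p = 0.712).

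Over the 8 measured members other than GIP the cholate responses ran from -0.17 to 0.40 log2 on the plate (median 0.08) and from -0.32 to 0.19 on Transwell (median -0.07). Medians over all measured genes were -0.01 and 0.00. Support differences of these 8 ran from -0.07 to 0.25 in vehicle and from -0.52 to -0.02 in cholate. Only 3 of the 9, GIP, PYY and NEUROG3, had means above the floor and entered the limma fit, and 0 were called for support.

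**Figure D2:**
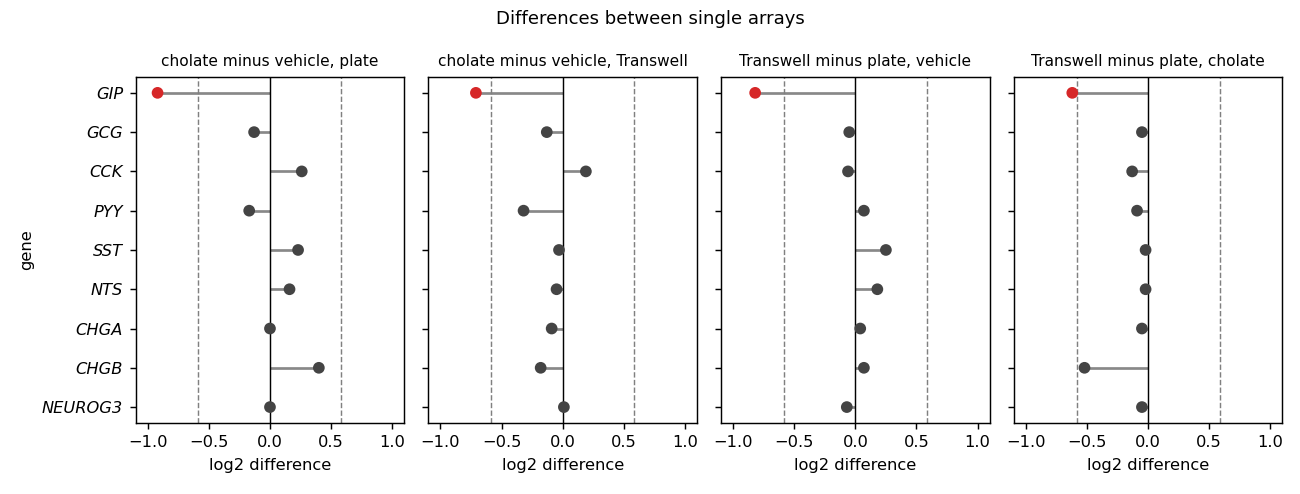
Log2 differences (horizontal axes) of the 9 measured genes for cholate minus vehicle on each support and Transwell minus plate in each treatment, each from 1 array against 1 array; dashed lines mark 1.5-fold and red points lie beyond it. GIP is beyond the line in all 4 panels, from -0.92 to -0.62, and CHGB comes closest among the others, at -0.52 in the right panel.

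In the check of cell type markers, a larger share of enterocyte markers than of the measured members lay above the floor. Of all 18417 measured genes, 12900 had means above the floor. All 17 measured enterocyte markers of 18 did, among them the cadherin CDH17 and the apolipoproteins APOB and APOA1. Of the 10 enteroendocrine genes, CHGA, CHGB, SST, CCK, NTS and GCG were under the floor on all 4 arrays. Outside the members, 12 of 22 measured granule genes, 14 of 24 lineage factors and 6 of 12 other hormones had means above it. Markers of other cells that a culture could hold were above the floor in 4 of 8 goblet, 4 of 9 tuft, 2 of 6 measured Paneth and 2 of 6 measured neuron genes. Those above it included AGR2, ZG16 and TFF3 of the goblet list, with means of 10.52, 10.36 and 9.53, IL17RB of the tuft list (8.59) and UCHL1 of the neuron list (7.81). MUC2 of goblet cells, DCLK1 of tuft cells, DEFA5 of Paneth cells and ELAVL4 of neurons had means under it.

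Beside the lower GIP in cholate and on Transwell, the marker lists gave these values. The mean log2 intensity over the neuron list was 4.74 in plate vehicle, 4.66 in plate cholate, 4.61 in Transwell vehicle and 4.66 in Transwell cholate, and its median cholate responses were 0.04 and 0.11. UCHL1, a ubiquitin hydrolase of this list that endocrine cells also express, read 8.46, 7.54, 7.76 and 7.49, so plate vehicle was its highest pool, as in GIP. The goblet list had means of 6.45, 6.60, 6.60 and 6.53, the tuft list 4.73, 4.77, 4.86 and 4.86, and the Paneth list 4.59, 4.55, 4.64 and 4.60. In the enterocyte list the mean was 8.47, 8.63, 8.93 and 9.03, but its members differed in direction by support. Of the 17, 4 (MTTP, LGALS4, FABP2 and APOA4) were at least 1.5-fold higher on Transwell in both treatments, and 0 were lower. Among all genes above the floor, 1.19% were higher and 1.84% lower in this way. FABP2 read 4.49 and 4.71 on the plate, under the floor, and 5.52 and 6.17 on Transwell. It thus passed the floor on its mean through the Transwell values. MTTP, a lipid transfer protein of lipoprotein assembly, was higher on Transwell by 2.84 and 2.90 log2 in vehicle and cholate, while APOA1 stood at -0.57 and -0.80 and APOB at -0.26 and -0.47. The part of these markers in the GIP values was not tested.

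The genes whose pattern was most like that of GIP were found by the Euclidean distance over the 4 arrays, after subtraction of each gene's own mean, among 12897 genes above the floor. The nearest was DOCK8 (distance 0.13 log2), followed by FXYD4, a regulator of the sodium pump (0.16), EMP2 (0.17), RHOBTB1 (0.19) and TFCP2L1 (0.20). DOCK8 read 7.32 in plate vehicle, 6.56 in plate cholate, 6.59 in Transwell vehicle and 5.94 in Transwell cholate. FXYD4 read 8.22, 7.19, 7.22 and 6.70 in that order. In both, the middle pools lay close together as in GIP. Likeness over 4 arrays is a description and has no test.

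**Figure D3:**
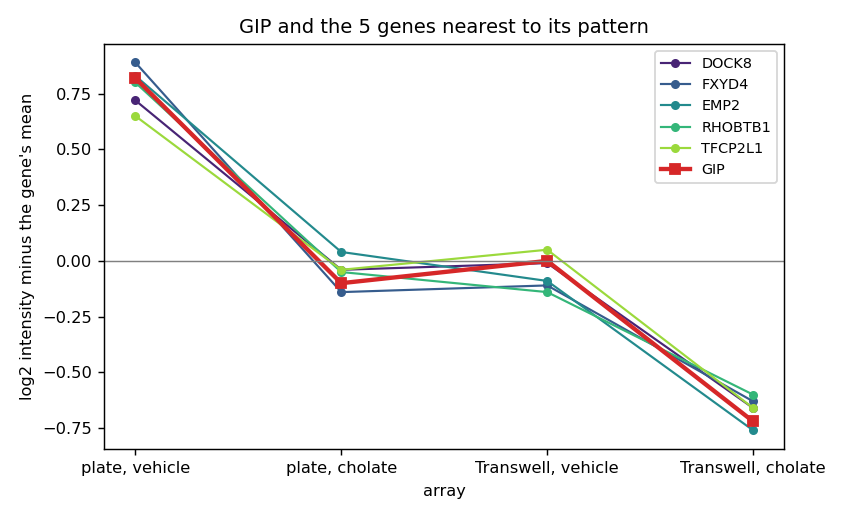
Log2 intensity minus the gene's own mean (vertical axis) on the 4 arrays (horizontal axis) for GIP, in red, and the 5 genes at the smallest distance from it (0.13 to 0.20 log2). Each line drops from plate vehicle to a pair of similar middle values and again to Transwell cholate.

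Other gut hormones were taken from a list of 14 genes, of which 12 were measured and 6 lay above the floor. None was 1.5-fold apart in either cholate pair, where 3.84% (plate) and 1.09% (Transwell) of all genes above the floor were. Nor was any in both support pairs, where 1.84% of genes above the floor were lower and 1.19% higher. At such shares a short list can hold none. A count of 0 here or in the lists below therefore does not set a list apart from other genes. Their median responses were 0.07 log2 (plate) and 0.02 (Transwell). GAL, the neuropeptide galanin, read 6.85 and 6.53 on the plate and 7.23 and 7.19 on Transwell. GHRL, which encodes the stomach hormone ghrelin, read 5.77 and 5.60 on the plate and 5.48 and 5.45 on Transwell. NPW, a neuropeptide precursor, had its highest value in Transwell cholate, at 6.56 against 6.10 in Transwell vehicle.

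Of 24 genes for secretory granules and hormone processing, 22 were measured and 12 lay above the floor. None of these 12 was 1.5-fold apart in a cholate pair, where 3.84% (plate) and 1.09% (Transwell) of genes above the floor were. Nor was any of the 22. The median response was 0.04 on each support. PAM, the enzyme that amidates peptide hormones, read between 10.01 and 10.03 on all 4 arrays. SCGN, a calcium sensor of endocrine cells, read 8.49 and 8.58 on the plate and 8.83 on both Transwell arrays.

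This list held 2 genes that differed by support on a larger scale than GIP. They were the 2 of its 12 above the floor that were at least 1.5-fold lower on Transwell in both treatments. The share over all genes above the floor was 1.84%. Both genes passed the floor on their mean over the 4 arrays through their plate values. The count of 2 is thus a description and carries no test. RAB3B, a GTPase of vesicle release, read 5.89 and 6.04 on the plate and 4.88 and 4.80 on Transwell, a mean of -1.12 log2 with an SE of 0.10 (limma adjusted p = 0.0858). SYT13, a synaptotagmin, read 5.99 and 5.68 on the plate and 4.79 and 4.82 on Transwell (mean -1.03, SE 0.12, limma adjusted p = 0.097). Neither passed the test. Unlike GIP, both stayed within 1.5-fold between vehicle and cholate on each support, the plate responses being 0.15 and -0.32. On Transwell their values lay close to or under the floor, which leaves little room to show a lower level in cholate.

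Lineage factors of endocrine cells numbered 26, with 24 measured and 14 above the floor. None was 1.5-fold apart in both cholate pairs, as 0.504% (lower) and 0.178% (higher) of genes above the floor were. On the plate alone DLL4, a Notch ligand, was higher by 0.70 log2 (0.35 on Transwell), and it was named after its values were seen. The median response was 0.10 on the plate and 0.13 on Transwell, and 17 of 24 (70.8%) were above 0 in both pairs. That compares with 28.2% of all measured genes and 33.4% of measured genes under the floor. After each array was centred on its median the count was 11 of 24 (45.8%). The shares were then 16.8% of all measured genes and 20.5% of those under the floor. The list medians were 0.02 and 0.08, against -0.08 and -0.05 over all measured genes. Genes under the floor are among the 24, and their signs cannot show how they ran. HES1, which holds back endocrine fate, was among those above 0 in both pairs as deposited (0.44 and 0.01). The count therefore gives no direction for factors that favour endocrine fate.

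Of the factors whose motifs were searched in the GIP window, GATA4 read 5.53 and 5.77 on the plate and 5.48 and 5.79 on Transwell, higher in both cholate pools (0.24 and 0.31). GATA6 read between 9.29 and 9.33 on all arrays. PDX1 had a mean under the floor and responses of 0.29 and 0.46, and ISL1 lay under the floor on all arrays with -0.03 and -0.10. Values under the floor cannot show how the last 2 ran. HES1, the Notch target that holds back endocrine fate, read 9.95 and 10.39 on the plate and 9.60 and 9.61 on Transwell. FOXA1, a pioneer factor of gut epithelium, gave 0.09 and 0.00. INSM1, a factor of endocrine cells, was above the floor and gave 0.01 and 0.11.

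Sensors of nutrients and bile acids numbered 26, with 23 measured and 10 above the floor, and none was 1.5-fold apart in a cholate pair or in both support pairs. The shares of all genes above the floor are those given for the other gut hormones. Median responses were 0.01 on the plate and -0.01 on Transwell. The bile acid receptor gene GPBAR1 read 4.76 and 4.84 on the plate and 4.93 and 4.78 on Transwell, with a mean just under the floor. NR1H4, which encodes the nuclear bile acid receptor FXR, had no probe set of its own in the annotation used here. SLC10A2, the apical bile acid uptake carrier, read 4.56 and 4.59 on the plate and 5.18 and 5.17 on Transwell. GNAS, the stimulatory G protein subunit, the peptide carrier SLC15A1 and the calcium channel CACNA1D were the others named by level. CACNA1D read 7.10 and 7.39 on the plate and 6.67 and 6.58 on Transwell, lower on inserts in both treatments like GIP, but without a lower value in plate cholate.

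Receptors for these hormones, with the incretin-cleaving protease DPP4, gave 21 measured genes of 23 and 11 above the floor. None was 1.5-fold apart in both cholate pairs, as 0.504% (lower) and 0.178% (higher) of genes above the floor were. CCKBR, the receptor for gastrin and CCK, was the 1 gene past that fold on the plate. It read 8.23 in plate vehicle, 6.99 in plate cholate, 7.38 in Transwell vehicle and 6.87 in Transwell cholate, at -1.24 and -0.51 log2 for cholate. As in GIP, plate vehicle was its highest pool and Transwell cholate its lowest. CCKBR was named after its values were seen. GIPR, the GIP receptor, read 5.92 and 6.19 on the plate and 5.90 on both Transwell arrays. DPP4 read between 12.66 and 12.82, and SSTR1, a somatostatin receptor, between 8.99 and 9.29. SORL1, a sorting receptor, was lowest in plate vehicle at 9.98, the other 3 pools reading 10.40 to 10.68.

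The limma fit for cholate called 0 of 19978 probe sets (0%), with 2162 at an unadjusted p under 0.05 where chance gives 999 and a smallest Benjamini-Hochberg adjusted p of 0.312. It therefore called none of the genes above the floor in these 5 lists.

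**Figure D4:**
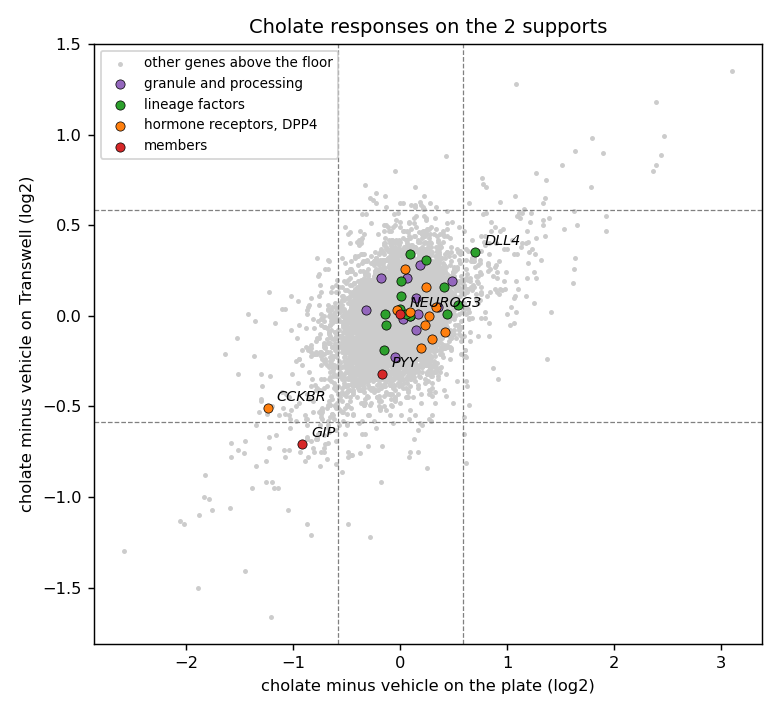
Cholate minus vehicle (log2) on the plate (horizontal axis) against Transwell (vertical axis) for the 12900 genes above the floor in grey, with enteroendocrine members in red and granule, lineage and receptor genes in colour; dashed lines mark 1.5-fold. GIP (-0.92 and -0.71) is the only coloured point past the line on both axes, and CCKBR (-1.24 and -0.51) passes it on the plate.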

How the data were processed

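Each of the 4 arrays held RNA pooled from 3 samples of 1 condition. The authors deposited RMA log2 intensities, 1 value for a probe set on an array, per the submitters' processing notes; which software ran RMA is not given here. RMA makes the arrays' distributions alike, which would hide a shift common to most transcripts. Array medians lay between 5.64 and 5.73, and arrays correlated at 0.977 to 0.993 over probe sets above the floor. The number of arrays limits the precision.

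Of 33297 probe sets, 19460 had 1 symbol in the platform annotation, 1754 several and 12083 none listed; the probe set with the highest mean stood for a gene. All 9 measured members matched the RefSeq table (GRCh38.p14) by gene number. Gene positions are left out, since no source used here names a build for the probe sets.

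Probe sets with a mean at or above the 40th percentile (19978) entered an additive model of support and treatment in limma 3.58.1 (R 4.3.3; lmFit, eBayes, 2-sided, adjusted p under 0.05 over all of them), checked on simulated data. Differences between arrays are counted at 1.5-fold. Values given in a row follow the order plate vehicle, plate cholate, Transwell vehicle, Transwell cholate. The members and the 10 gene lists were chosen with earlier results of these data known. From each list, the 3 genes of highest mean and up to 4 genes 1.5-fold apart in both pairs of a comparison could be named; others were named after their values were seen. Alternatives were median centring, quantile and cyclic loess normalization, other floors and folds, a model of support alone, and the mean of all probe sets of a gene.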

Additional observations from a re-analysis of the deposited data

How the results depend on the processing

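GIP was below 0 in all 4 differences under each normalization tried, at -0.92 or lower for cholate on the plate, -0.76 to -0.71 on Transwell, -0.83 to -0.81 for support in vehicle and -0.62 to -0.57 in cholate. In that last pair it missed 1.5-fold, and the count of members went from 1 to 0, after median centring and after quantile normalization. At a fold of 2 the count of lower members was 0 in each of the 4 comparisons. At a fold of 1.3 a further member passed in 2 comparisons, CHGB in both: 1 higher for cholate on the plate and 2 lower for Transwell minus plate in cholate. The support effect on GIP stayed between -0.72 and -0.69, and its limma adjusted p between 0.11 and 0.413, over 5 alternatives; at the floor of the 60th percentile GIP was not tested. That floor called 353 probe sets higher and 454 lower for support, where the main setting called 0 and 0, with fewer probe sets tested; the cause was not tested. Each member had 1 probe set, so averaging probe sets changed no member. No array could be left out, because each condition had 1 and the fit would keep no residual degrees of freedom. Values under the floor, which held 6 of the 9 measured members, leave little room to show a lower level.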
